A study of Homo sapiens with 15 samples.

Results

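A set of 10 genes was examined because their products remove reactive aldehydes, ketones and epoxides: AKR1B1, AKR1B10, AKR1C1, AKR1C2, AKR1C3, ALDH3A1, ALDH1A3, CBR1, CBR3 and EPHX1. These 10 were chosen by name, through their Ensembl identifiers, from the 58219 genes of the count table, with earlier results of these data known. Shares of all genes are therefore given beside them as a description, not as a test of the set. All 10 passed the filter on low counts and were tested beside 17599 genes in all. They were measured by RNA sequencing in BEAS-2B cells, an immortalized line of human bronchial epithelial cells grown in serum-free medium on collagen-coated plates. The particles were PM2.5, fine particulate matter collected on filters in Beijing and extracted in water. In the 24-h protocol, cells received medium alone (Control_24h), 1 µg/cm2 of PM2.5 (PM_24h_1dose) or 30 µg/cm2 of PM2.5 (PM_24h_30dose). In the repeated protocol, cells received medium alone (Control_7d) or 1 µg/cm2 of PM2.5 every day over a week, with washing between doses (PM_7d_1dose). Each of the 5 conditions had 3 libraries from 3 numbered experiments, which gives 15 libraries of one cell line under submerged culture.

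Aldo-keto reductases (AKR) use NADPH to reduce aldehydes and ketones to alcohols, and carbonyl reductases (CBR) do the same through a different protein fold. Aldehyde dehydrogenases (ALDH) oxidize aldehydes to acids, and EPHX1, the microsomal epoxide hydrolase, adds water to epoxides such as those formed from polyaromatic hydrocarbons. Several of these enzymes act on lipid peroxidation products and on quinones, and AKR1C enzymes also oxidize trans-dihydrodiols of polyaromatic hydrocarbons. AKR1C and AKR1B10 genes are textbook targets of NRF2, the transcription factor of the antioxidant response, and ALDH3A1 is a textbook target of the aryl hydrocarbon receptor (AhR).

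AKR1C1 (ENSG00000187134, 4963253 to 4983283, plus strand), AKR1C2 (ENSG00000151632, 4987400 to 5018031, minus strand) and AKR1C3 (ENSG00000196139, 5035354 to 5107686, plus strand) lie side by side on chromosome 10 of GRCh38. They arose by duplication, and the sequence before their start sites is shown because it makes the likeness of AKR1C1 and AKR1C2 visible. The RefSeq table for GRCh38.p14 held a 300-base promoter for 7 of the 10 genes (not for AKR1B10, ALDH3A1 and CBR3). In the 250 bases before the start site, AKR1C1 and AKR1C2 shared an identical run of 245 bases. The AKR1C3 sequence, taken at the downstream of its 2 listed start sites, matched AKR1C1 at 185 of 234 aligned bases (79.1%). Each sequence reads 5′ to 3′ on the strand of its gene. Within the aligned stretch, capitals mark bases that differ from AKR1C1 or have no partner in it. In AKR1C1 itself the capital marks the first base after the run shared with AKR1C2. Beyond the 250 bases AKR1C1 holds a short extra stretch, after which the sequences of both genes line up again. The last capital in AKR1C1 and in AKR1C2 thus comes from where the window ends, and not from a single changed base.
AKR1C1, chr10:4963165-4963414, plus strand: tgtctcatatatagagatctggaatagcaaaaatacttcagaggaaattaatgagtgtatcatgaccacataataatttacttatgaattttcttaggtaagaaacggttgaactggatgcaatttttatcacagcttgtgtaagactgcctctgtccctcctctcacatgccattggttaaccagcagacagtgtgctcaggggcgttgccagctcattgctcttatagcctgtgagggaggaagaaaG
AKR1C2, chr10:5003858-5004107, minus strand: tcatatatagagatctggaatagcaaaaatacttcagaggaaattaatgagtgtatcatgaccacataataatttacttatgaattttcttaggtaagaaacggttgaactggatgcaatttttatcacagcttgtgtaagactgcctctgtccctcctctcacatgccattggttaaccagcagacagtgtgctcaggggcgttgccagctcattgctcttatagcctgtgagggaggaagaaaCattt
AKR1C3, chr10:5094164-5094413, plus strand: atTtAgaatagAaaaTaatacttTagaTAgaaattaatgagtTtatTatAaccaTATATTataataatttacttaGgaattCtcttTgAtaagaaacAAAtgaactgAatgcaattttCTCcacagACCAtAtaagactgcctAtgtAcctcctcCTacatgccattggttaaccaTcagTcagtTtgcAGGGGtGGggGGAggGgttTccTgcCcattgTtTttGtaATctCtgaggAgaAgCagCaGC

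Each promoter was searched on both strands for TGACNNNGC, the core of the antioxidant response element, and for GCGTG, the core of the AhR response element. Of 27305 promoters of the same length, 13.6% held the first and 36.3% the second. AKR1C1, AKR1C2 and AKR1C3 held neither motif in this window. CBR1 and 1 of the 3 listed EPHX1 start sites held TGACNNNGC 1 time and GCGTG 2 times, and AKR1B1 held GCGTG 1 time. ALDH1A3, which was called at the high dose below, held GCGTG 2 times in a promoter of 81.7% G and C. CBR1 and EPHX1, not called at that dose in the fit of all 15 libraries, held it as often. Any part of these matches in a response was not tested. The upstream sequence of ALDH1A3 is shown with both matches in capitals. The minus-strand match reads as the reverse complement.
ALDH1A3, chr15:100879581-100879830, plus strand: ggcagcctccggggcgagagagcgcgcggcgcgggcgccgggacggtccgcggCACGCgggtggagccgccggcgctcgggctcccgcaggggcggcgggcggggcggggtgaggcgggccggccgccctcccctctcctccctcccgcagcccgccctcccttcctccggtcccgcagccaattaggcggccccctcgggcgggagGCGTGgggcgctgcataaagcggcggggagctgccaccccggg

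AKR1C genes share reads. Of the distinct 50-base windows of their transcripts, the length of the reads, 24.9% of AKR1C1, 36% of AKR1C2 and 5.23% of AKR1C3 also occurred in transcripts of another gene. These shares pool all listed transcripts (5 of AKR1C1 and 10 of AKR1C2), so the share within 1 transcript can be higher or lower. For AKR1C1 and AKR1C2 most of this sharing was with each other, in 2170 windows. Reads from those windows could have been dropped or split in counting, so values of AKR1C1 and AKR1C2 apart from each other are uncertain. AKR1B10 (chromosome 7, 134527592 to 134541408) shared 15.2% of its windows, 9.54% with its neighbour AKR1B15 and 5.9% with the pseudogene AKR1B10P1. CBR3, ALDH1A3 and CBR1 overlap antisense genes, and how strand was treated in counting is not given in the sources used here. The overlap covered 42.2% of the exon bases of CBR3 (CBR3-AS1), 27.5% of ALDH1A3 (ALDH1A3-AS1) and 18.9% of CBR1 (CBR1-AS1), and the antisense genes had medians of 29, 116 and 2 counts. EPHX1 (chromosome 1, 225810092 to 225845563) shared no window with another gene.

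Library depth ran from 21460981 to 34724765 counted reads (median 29243177). At this depth 3 counts equalled 0.0864 to 0.14 CPM (counts scaled to the total of the library), and the lowest count of any member in any library was 13, for AKR1C3. Libraries of 24-h experiment 2 stood apart from those of experiments 1 and 3. Over all tested genes, the median absolute difference between experiment 2 and the mean of the others was 0.387 on the log2 scale in Control_24h, against 0.179 between experiments 1 and 3. Among the members, in all 3 of the 24-h conditions experiment 2 lay above the others for 6 members (AKR1B1, AKR1C2, AKR1C3, ALDH3A1, CBR3 and EPHX1) and below them for 1 (ALDH1A3). Experiments 1 and 3 differed by no more than 0.332 in any of the 10 members. Because the series record calls the experiment number a batch, every comparison within a protocol was also fitted with this number as a replicate block. All comparisons were also fitted with 24-h experiment 2 left out, which leaves 2 libraries in each 24-h condition. Experiment 2 was singled out because its libraries stood apart in these same data. Leaving such libraries out lowers the estimated spread, so calls gained in that fit are a description and not independent support.

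Of the cell type markers, 8 of 8 epithelial genes had a mean over 1 CPM, with a summed level of 1030 to 3500 CPM per library. Markers of ciliated cells summed to at most 0.875 CPM and of secretory cells to at most 0.479 CPM, with SCGB1A1 and SCGB3A1 at 0. Endothelial markers summed to at most 0.345 CPM. Leukocyte markers summed to 2.37 to 23.4 CPM, nearly all of it CD14, and PTPRC was at 0 in 4 of the 5 conditions. The fibroblast genes COL1A1, COL1A2, PDGFRB and DCN were all over 1 CPM, with sums of 52 to 120 CPM. KRT5, a basal keratin, had a mean of 748 CPM in Control_24h and 136 CPM in PM_24h_30dose. The part of these shifts in the results below was not tested, and in bulk RNA fewer cells of a type and less RNA per cell cannot be told apart.

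Per kilobase of exon, AKR1B1, the polyol pathway aldose reductase, was the most abundant member in Control_24h, at 57.8 ± 9.52 RPKM (SD, n = 3; CPM per kilobase). CBR1 followed at 31.6 ± 2.15 RPKM, EPHX1 at 20.8 ± 9.59 RPKM, ALDH1A3 at 10.6 ± 3.21 RPKM and CBR3 at 4.34 ± 1.02 RPKM. The ranges of neighbours in this order did not overlap, except those of CBR1 and EPHX1. Below them lay AKR1B10 (1.23 ± 1.07 RPKM), AKR1C3 (0.975 ± 0.521), ALDH3A1 (0.823 ± 0.818), AKR1C2 (0.491 ± 0.194) and AKR1C1 (0.323 ± 0.181), and the ranges of each pair of neighbours among these overlapped. The lengths are those deposited with the counts, 8765 bases for AKR1C1, and pool the exons of all transcripts, so levels of genes with long alternative exons are understated.

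**Figure D1:**
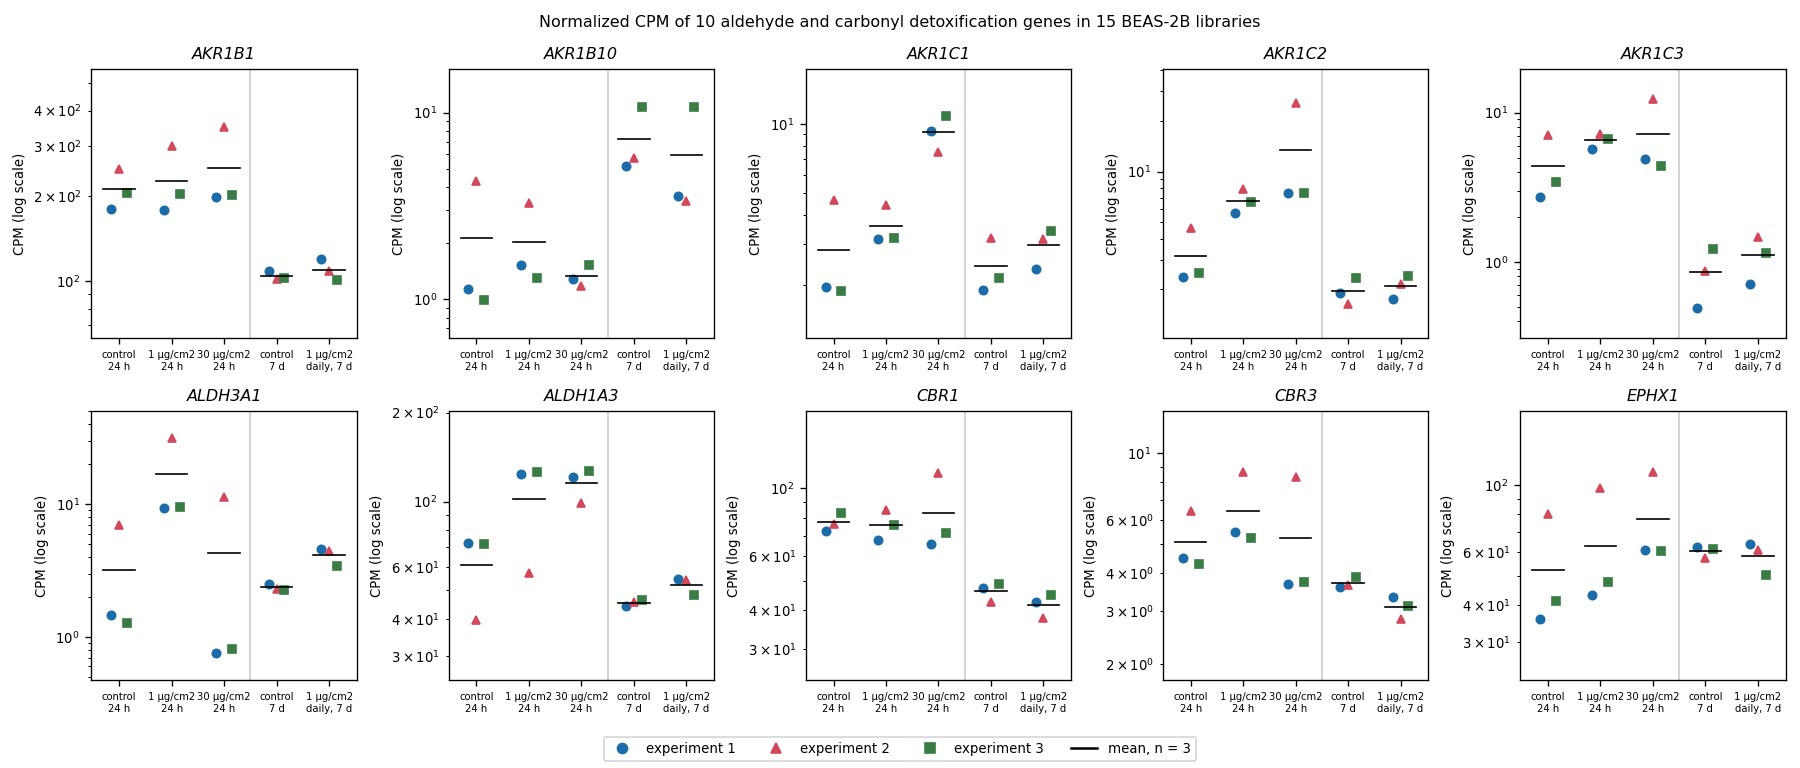
Normalized CPM (log axis, its range set for each gene) of the 10 genes in all 15 libraries by condition, with symbols for the experiment number and bars for the mean of 3. Experiment numbers of the 24-h and 7-day protocols are different experiments. AKR1C1 at 30 µg/cm2 (7.53 to 10.8 CPM) lies above all controls, and 24-h experiment 2 (triangles) is the highest 24-h library of its condition for ALDH3A1, CBR3 and EPHX1.

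The first question was how these genes responded to 30 µg/cm2 of PM2.5 over 24 h. AKR1C1, AKR1C2 and ALDH1A3 rose in the fit of all 15 libraries. A gene was called where its adjusted p-value was under 0.05 (edgeR's quasi-likelihood test, Benjamini-Hochberg over all tested genes) and its log2 fold-change reached 0.6 in either direction. So 3 of 10 members were called higher, where 3.82% of all tested genes were, and 0 were called lower, where 4.24% of all genes were. The median log2 fold-change was 0.51 over the members and 0.028 over all tested genes. In the same 3 members every treated library exceeded every control, which held for 11.7% of all genes. Fitted with the replicate block, 4 members were called higher, where 7.36% of all genes were.

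AKR1C1 encodes a hydroxysteroid dehydrogenase that inactivates progesterone and also acts on aldehydes and dihydrodiols. Its level in experiments 1, 2 and 3 was 1.96, 4.66 and 1.88 CPM in Control_24h, and 9.30, 7.53 and 10.8 CPM in PM_24h_30dose. The groups did not overlap, and the treated library of experiment 2 was the lowest of its group while its control was the highest. The rise was 1.72 ± 0.336 on the log2 scale (SE), or 3.29-fold, with an adjusted p of 0.00514 in edgeR. Within experiments the log2 ratio of AKR1C1 was 2.25, 0.691 and 2.53. Counts behind these values were 53 to 99 in the controls and 217 to 283 after 30 µg/cm2.

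AKR1C2, which inactivates dihydrotestosterone, was at 2.38, 4.62 and 2.52 CPM in Control_24h and at 7.46, 25.5 and 7.47 CPM in PM_24h_30dose. Every treated library was above every control, and experiment 2 was the highest in both groups. The rise was 2.10 ± 0.431 (4.29-fold, edgeR adjusted p = 0.00686). The log2 ratio of AKR1C2 was 1.65, 2.47 and 1.57 in experiments 1 to 3. Without experiment 2, AKR1C1 rose by 2.37 and AKR1C2 by 1.595 on the log2 scale, and both were called. Both were also called in each of the 15 fits that left out 1 library. The value of AKR1C2 in those fits ran from 1.24 without PM_24h_30dose of experiment 2 to 2.46 without Control_24h of experiment 2, and that of AKR1C1 from 1.48 to 2.26.

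AKR1C3, which forms testosterone and prostaglandin F2α, was at 2.71, 7.11 and 3.44 CPM in the controls and at 4.90, 12.3 and 4.41 CPM after 30 µg/cm2. The groups overlapped because the control of experiment 2 was above the treated libraries of experiments 1 and 3. The log2 fold-change of 0.72 ± 0.439 was not called (edgeR adjusted p = 0.36). It was called with the replicate block, at 0.69 and an adjusted p of 0.0409. Without experiment 2 it was 0.59 and was not called (adjusted p = 0.118).

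Because the AKR1C genes share reads, they were also added into 1 row with AKR1C4, the liver form, which had at most 6 counts in a library. The sum rose by 1.53 on the log2 scale at 30 µg/cm2 (edgeR adjusted p = 0.0101). The mix of the 3 genes differed between experiments. AKR1C1 held 42.9% and 47.7% of the summed CPM at 30 µg/cm2 in experiments 1 and 3, and 16.6% in experiment 2, where AKR1C2 held 56.3%. In Control_24h, AKR1C1 held 24% to 28.4% and AKR1C3 38.5% to 43.9%. Thus the sum at 30 µg/cm2 was the highest in experiment 2, at 45.3 CPM, while AKR1C1 there was the lowest of its group.

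**Figure D2:**
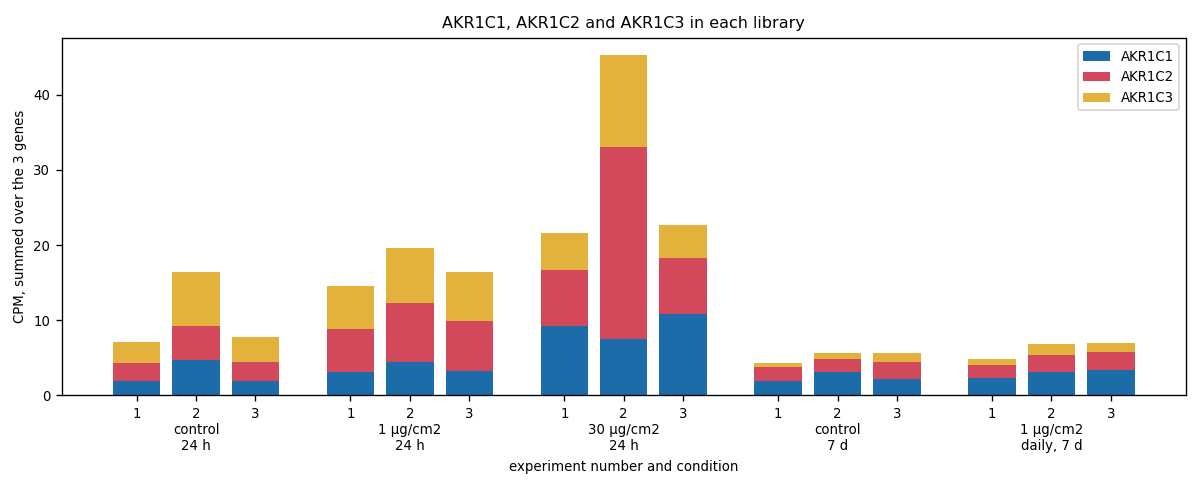
CPM of AKR1C1, AKR1C2 and AKR1C3, stacked as bars from 0, in each of the 15 libraries by condition and experiment number. The sum was 7.05 to 16.4 CPM in Control_24h, 21.7 to 45.3 CPM after 30 µg/cm2, and 4.30 to 6.99 CPM across the 7-day protocol.

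ALDH1A3, which makes retinoic acid from retinal, was at 72.1, 39.7 and 71.6 CPM in Control_24h and at 121.1, 99.1 and 126.8 CPM after 30 µg/cm2. All treated libraries exceeded all controls, and experiment 2 was the lowest of both groups. The rise was 0.92 ± 0.265 (1.89-fold, edgeR adjusted p = 0.0414). This call was lost in 11 of the 15 fits that left out 1 library (adjusted p up to 0.142), including each fit without a 7-day library. With the replicate block the value was 0.97 with an adjusted p of 0.000179, and without experiment 2 it was 0.77 with an adjusted p of 1.41e-06. When the fit held only the 6 libraries compared, the adjusted p became 0.0802 for AKR1C1, 0.108 for AKR1C2 and 0.115 for ALDH1A3, and none was called. The share of all genes called in that fit was not counted.

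EPHX1 and the other members were not called at 30 µg/cm2. EPHX1 was at 35.9, 79.9 and 41.0 CPM in Control_24h and at 61.0, 110.4 and 60.4 CPM after 30 µg/cm2, higher than the control of the same experiment in 3 of 3. The groups overlapped only through the control of experiment 2. Its log2 fold-change was 0.57 ± 0.343 (adjusted p = 0.356), and with the replicate block 0.60 with an adjusted p of 0.000532, just under the fold that a call required. Without experiment 2, EPHX1 was called at 0.65 (adjusted p = 0.000241).

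AKR1B1, CBR1 and CBR3 had ranges that overlapped between the groups. Log2 fold-changes at 30 µg/cm2 were 0.25 ± 0.226 for AKR1B1, 0.10 ± 0.173 for CBR1 and 0.06 ± 0.303 for CBR3, and the adjusted p in edgeR was 0.574 or more. For CBR1 and CBR3, which reduce quinones and other carbonyls, the treated library was higher in 3 of the 9 possible pairings with a control. AKR1B10, which reduces retinal and other aldehydes, was at 1.14, 4.29 and 0.992 CPM in the controls and at 1.28, 1.18 and 1.53 CPM after 30 µg/cm2. Its log2 fold-change was -0.66 ± 0.617 with all libraries and 0.305 without the control of experiment 2.

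**Figure D3:**
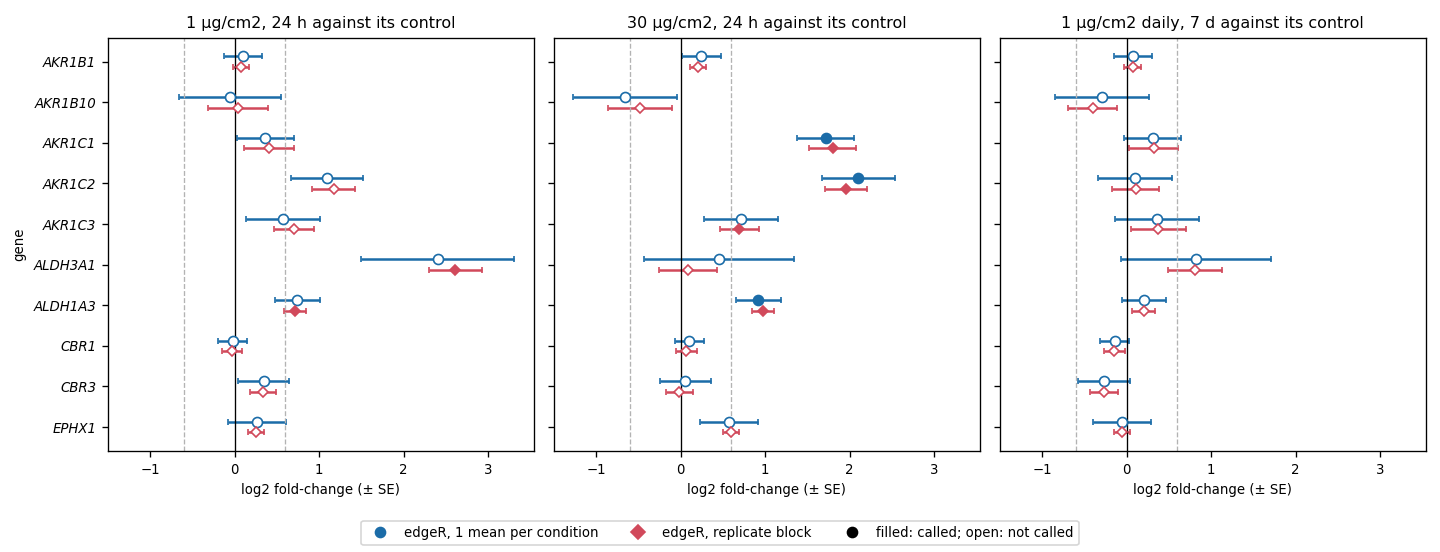
Log2 fold-change ± SE of the 10 genes in the 3 comparisons of a treatment with its control, by edgeR with 1 mean per condition (circles) and with the replicate block (diamonds); filled symbols were called, and dashed lines mark the fold of 0.6 that a call required. ALDH3A1 lies at 2.41 for 1 µg/cm2 and at 0.45 for 30 µg/cm2.

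The next question was the response to 1 µg/cm2 over 24 h. The data showed ALDH3A1 as the member with the largest ratio to its control. With it, 5 others were above the control of the same experiment in 3 of 3 (AKR1C2, AKR1C3, ALDH1A3, CBR3 and EPHX1). For AKR1C3 in experiment 2 the log2 ratio was only 0.026, and the share of all genes above in 3 of 3 was not counted. None of the 10 members was called in edgeR's quasi-likelihood test without the block, where 0.0455% of all tested genes were called higher and 0.017% lower. At an unadjusted p under 0.05 there were 3 members (ALDH3A1, ALDH1A3 and AKR1C2) and 534 genes, and DESeq2 and edgeR's likelihood ratio test also called 0 members. With the replicate block 2 members were called higher (ALDH3A1 and ALDH1A3), where 0.25% of all genes were. With experiment 2 left out 4 were called higher (ALDH3A1, ALDH1A3, AKR1C2 and AKR1C3), where 1.11% of all genes were. In AKR1C2 and ALDH3A1 every treated library exceeded every control, which held for 2.31% of all genes.

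ALDH3A1 oxidizes aromatic and medium-chain aldehydes. It was at 1.48, 6.92 and 1.28 CPM in Control_24h and at 9.35, 31.6 and 9.48 CPM in PM_24h_1dose. The groups did not overlap although experiment 2 was some way above the others in both. The log2 fold-change was 2.41 ± 0.905 (5.30-fold) with an adjusted p of 1 in edgeR, and with the replicate block it was 2.61 ± 0.318 with an adjusted p of 0.00265. The log2 ratio of ALDH3A1 to the control of the same experiment was 2.66, 2.19 and 2.89. In the fits that left out 1 library the log2 fold-change ran from 1.58, without PM_24h_1dose of experiment 2, to 3.62, without Control_24h of experiment 2, and it was called in none of them.

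ALDH1A3 was at 124, 57.4 and 126 CPM after 1 µg/cm2. Experiment 2 was the lowest, so the groups overlapped, but the log2 ratio within experiments was 0.776, 0.530 and 0.810. The log2 fold-change of 0.74 ± 0.264 had an adjusted p of 1, and with the replicate block it was 0.72 with an adjusted p of 0.0344. AKR1C2 was at 5.68, 7.88 and 6.64 CPM, above all controls, with a log2 fold-change of 1.10 ± 0.426 (adjusted p = 1) and of 1.17 with the block (adjusted p = 0.0789). For AKR1C3 the log2 fold-change was 0.57 ± 0.439 and for AKR1C1 0.36 ± 0.337, both with an adjusted p of 1. The summed AKR1C genes were at 0.70 (adjusted p = 1). The remaining 5 members lay between -0.06 and 0.34.

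At 30 µg/cm2 the direction of ALDH3A1 differed between experiments. It was at 0.756, 11.3 and 0.814 CPM in PM_24h_30dose, so that experiments 1 and 3 were below every control and experiment 2 above every control. Against the control the log2 fold-change was 0.45 ± 0.889 (edgeR adjusted p = 0.817), and 0.09 with the block (adjusted p = 0.875). Without experiment 2 ALDH3A1 was called lower, by -0.83 ± 0.259 with an adjusted p of 0.0181, where 9.95% of all genes were called lower and 9.16% higher. That fit called 4 members higher at 30 µg/cm2 (AKR1C1, AKR1C2, ALDH1A3 and EPHX1). The counts of ALDH3A1 at 30 µg/cm2 were 17 to 325.

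**Figure D4:**
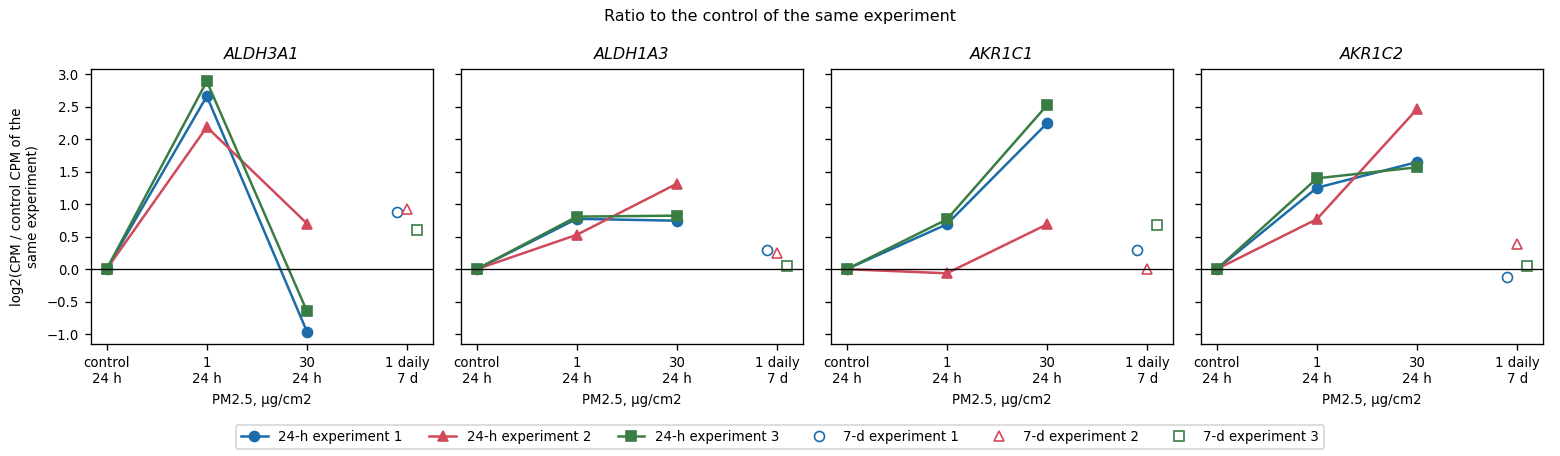
Log2 ratio of CPM to the control of the same experiment for ALDH3A1, ALDH1A3, AKR1C1 and AKR1C2, with lines joining the 24-h doses of one experiment and open symbols for the 7-day experiments. ALDH3A1 is above its control at 1 µg/cm2 in all 3 experiments, by 2.19 to 2.89, and at 30 µg/cm2 it is at -0.964, 0.703 and -0.648.

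The doses were then compared directly. Without the block 1 member was called higher at 30 than at 1 µg/cm2, where 3.62% of all genes were, and 0 lower, where 4.22% were. This was AKR1C1, at 1.36 ± 0.331 on the log2 scale (edgeR adjusted p = 0.019), and its groups did not overlap. The call was lost in 4 of the 15 fits that left out 1 library (adjusted p up to 0.0841), namely those without experiment 1 or 3 of either dose. It was also lost with only the 6 libraries compared (adjusted p = 0.0692), and the summed AKR1C genes were at 0.83 (adjusted p = 0.132).

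With the replicate block 2 members were called higher, where 6.97% of all genes were, and 1 lower, where 8.58% were. The second called higher was AKR1C2, at 0.79 with an adjusted p of 0.0222, against 1.01 ± 0.413 and 0.146 without the block. Without experiment 2 AKR1C2 was at 0.25 and was not called (adjusted p = 0.327). The member called lower was ALDH3A1, at -2.52 ± 0.318 with an adjusted p of 0.000102. Without the block this value was -1.95 ± 0.882 (adjusted p = 0.189), and without experiment 2 it was -3.61 ± 0.223 (adjusted p = 4.69e-09). It was -1.14 without PM_24h_1dose of experiment 2 alone, and -4.43 without PM_24h_30dose of experiment 2 alone, where it was called (adjusted p = 0.00254). The fit without experiment 2 called 1 member higher between the doses (AKR1C1), where 7.38% of all genes were, and 1 lower (ALDH3A1), where 9.97% were. Within experiments the log2 ratio of ALDH3A1 between the doses was -3.63, -1.49 and -3.54, lower at 30 µg/cm2 in 3 of 3. ALDH1A3 was at 0.18 ± 0.262 between the doses (adjusted p = 0.741), and this interval spans both directions.

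The third question was the response to repeated exposure. None of the 10 members was called in PM_7d_1dose against Control_7d, where 0.227% of all genes were called in either direction, and 0 had an unadjusted p under 0.05, as 2102 genes did. The replicate block, DESeq2 and the likelihood ratio test also called 0 members. The median log2 fold-change was 0.087 over the members and 0.009 over all tested genes. All libraries of the treated group were above all controls for ALDH3A1 and ALDH1A3, which held for 21.3% of all genes, and below them for CBR3, which held for 21.6% of all genes.

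ALDH3A1 was at 2.51, 2.31 and 2.26 CPM in Control_7d and at 4.63, 4.42 and 3.43 CPM in PM_7d_1dose. The groups were apart and close within each, and the log2 fold-change was 0.82 ± 0.892 (edgeR adjusted p = 0.773). The spread behind this SE was estimated from all 15 libraries. In a fit of the 6 libraries of the repeated protocol alone ALDH3A1 was called, at 0.83 with an adjusted p of 0.00569. The share of all genes called in that fit was not counted. ALDH3A1 was also called with 24-h experiment 2 left out, at 0.82 ± 0.158 with an adjusted p of 0.00157. It was the 1 member called with experiment 2 left out, where 2.64% of all genes were called higher. With the replicate block its adjusted p was 0.113. ALDH1A3 was at 44.4, 45.6 and 46.3 CPM in Control_7d and at 54.5, 54.2 and 48.2 CPM in PM_7d_1dose, a log2 fold-change of 0.20 ± 0.263 (adjusted p = 0.815). CBR3 was at 3.61, 3.66 and 3.89 CPM and at 3.34, 2.83 and 3.12 CPM, with -0.27 ± 0.307 (adjusted p = 0.788).

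For the AKR1C genes the groups of the repeated protocol overlapped. AKR1C1 was at 1.90, 3.18 and 2.13 CPM in Control_7d and at 2.33, 3.18 and 3.43 CPM in PM_7d_1dose, with a log2 fold-change of 0.31 ± 0.335 (adjusted p = 0.773). AKR1C2 was at 0.10 ± 0.440 and AKR1C3 at 0.36 ± 0.497, and the summed genes at 0.24 (adjusted p = 0.829). AKR1B10 was at -0.29 ± 0.556 and varied from 3.38 to 10.7 CPM among the treated libraries, in which experiment 3 was the highest as it was among the controls.

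Whether the response to 1 µg/cm2 differed between repeated and single exposure was tested as an interaction. In edgeR's quasi-likelihood test 0 members and 0% of all genes were called, 0 members and 1245 genes had an unadjusted p under 0.05, and the replicate block, DESeq2 and the likelihood ratio test called 0 members. All 10 values were below 0, with a median of -0.273 against -0.013 over all tested genes. The share of all genes below 0 was not counted, and the 10 values come from the same libraries. Some lay near 0, such as AKR1B1 (-0.028) and AKR1C1 (-0.053). The sign of AKR1B1, AKR1B10, AKR1C1, AKR1C3 and EPHX1 turned in fits that left out 1 library. The largest difference was that of ALDH3A1, at -1.59 ± 1.25 (adjusted p = 0.856), and at -1.81 ± 0.451 with the block (adjusted p = 0.0704). AKR1C2 was at -0.99 ± 0.611 (adjusted p = 0.806). With 24-h experiment 2 left out, ALDH3A1 (-1.95, adjusted p = 0.000189) and AKR1C2 (-1.24, adjusted p = 0.00528) were called lower, where 5.73% of all genes were.

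The controls of both protocols were compared to see the level from which each response started. In Control_7d against Control_24h 1 member was called higher, where 11.1% of all genes were, and 3 lower, where 10.8% were. The groups did not overlap for 1 member that was higher, against 27.6% of all genes, and for 5 that were lower, against 24.7% of all genes. The protocols were separate experiments, so time in culture, daily washing and batch cannot be told apart here, and no replicate block could be fitted.

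AKR1C3 showed the largest difference, from 2.71, 7.11 and 3.44 CPM in Control_24h to 0.494, 0.868 and 1.22 CPM in Control_7d. All 7-day libraries were below all 24-h controls, with a log2 fold-change of -2.33 ± 0.485 (edgeR adjusted p = 0.00297). The counts of AKR1C3 in Control_7d were 13 to 39. AKR1B1 was at 180.2, 249.1 and 205.4 CPM and at 108.8, 101.6 and 102.8 CPM, a log2 fold-change of -1.02 ± 0.229 (adjusted p = 0.00475), and CBR1 was lower by -0.74 ± 0.174 (adjusted p = 0.00594). The 3 calls held in each of the 15 fits without 1 library and without experiment 2. Without experiment 2, 4 members were called lower (these 3 and ALDH1A3), where 14.9% of all genes were, and 3 higher (AKR1B10, ALDH3A1 and EPHX1), where 16.1% were.

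AKR1B10 went the other way, from 1.14, 4.29 and 0.992 CPM to 5.17, 5.75 and 10.7 CPM. Its log2 fold-change was 1.78 ± 0.590 (adjusted p = 0.0359). The call was lost in 4 of the 15 fits that left out 1 library, with adjusted p-values up to 0.149. These left out Control_24h of experiment 1 or 3, or Control_7d of experiment 2 or 3. Leaving out Control_24h of experiment 2 alone gave 2.73 (adjusted p = 0.00379), and without all of 24-h experiment 2 it was 2.73 with an adjusted p of 0.000164. AKR1B15, with which AKR1B10 shares reads, was also called higher (edgeR adjusted p = 0.0194). It was near the floor of 3 counts in Control_24h (0.0471 to 0.151 CPM), so no fold is given for it. In Control_7d AKR1B15 had 0.321 to 0.941 CPM. AKR1C1 and AKR1C2 were not called, at -0.22 ± 0.339 and -0.68 ± 0.438, so that AKR1C3 held 11.5% to 21.5% of the summed AKR1C level in Control_7d against 38.5% to 43.9% in Control_24h.

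Related enzymes were counted from lists of gene families. For comparison, 3.82% of all tested genes were called higher at 30 µg/cm2 and 4.24% lower. At 30 µg/cm2 over 24 h, 0 of 6 other tested aldo-keto reductases and 0 of 3 other epoxide hydrolases were called. Their median log2 fold-changes were -0.06 and 0.12, against 0.028 over all genes. Of 16 other aldehyde dehydrogenases, 2 were called higher and 0 lower (median -0.16). These were ALDH1L2, a mitochondrial enzyme of folate metabolism (2.08 ± 0.268, adjusted p = 0.000291), and ALDH5A1, which oxidizes succinic semialdehyde (0.85 ± 0.121, adjusted p = 0.000535). With the block 15.2% of all genes were called in either direction and 7.36% higher, and the rest of the 15.2% were lower. In that fit another 3 aldehyde dehydrogenases, ALDH3B1, ALDH3B2 and ALDH4A1, were called lower. Of these, ALDH3B2 was near the floor of 3 counts, with 0 to 0.188 CPM in Control_24h and 0 in PM_24h_30dose (adjusted p = 0.0493 with the block), so no fold is given for it.

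Of 10 other carbonyl and enone reductases 2 were called higher and 0 lower (median 0.18). NQO1, a quinone reductase, went from 218 ± 18.0 CPM in Control_24h to 839 ± 237 CPM (SD, n = 3; log2 fold-change 1.95 ± 0.171, adjusted p = 2.08e-05). DHRS2, a dicarbonyl reductase, was at 1.67 ± 0.335 (adjusted p = 0.00595). DHRS3, a retinal reductase, was at 1.75 ± 0.537 with an adjusted p of 0.0548, and was called with the replicate block. Of 4 alcohol dehydrogenases 1 was called lower, ADH1B, from 3.35 ± 3.79 to 0.215 ± 0.0219 CPM (log2 fold-change -3.92 ± 0.934, adjusted p = 0.016), and the median was -0.52. ADH1B ran from 1.11 to 7.72 CPM in Control_24h and from 0.197 to 0.239 CPM after 30 µg/cm2. The groups did not overlap, but the size of the fold rests in part on the highest control, and the treated level was low.

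Reference targets of NRF2 and AhR were counted beside the members. At 30 µg/cm2, 9 of 12 NRF2 targets were called higher (median 2.14), among them OSGIN1 (3.38), HMOX1, the heme oxygenase (3.25), SLC7A11 (2.93), SRXN1 (2.38), TXNRD1 (2.37), GCLC (2.33) and GCLM (1.44). Of 6 AhR targets 5 were called higher (median 1.71), CYP1A1 by 4.34, CYP1B1 by 1.90, AHRR by 1.52 and TIPARP by 1.43, with NQO1 on both lists. ALDH3A1 was the AhR target that was not called. At 1 µg/cm2 over 24 h, 0 of 12 NRF2 targets (median 0.35) and 3 of 6 AhR targets were called higher (median 2.23), with CYP1A1 at 6.85, AHRR at 2.42 and CYP1B1 at 2.05. With the block all 6 AhR targets were called, ALDH3A1 among them, and 1 NRF2 target, NQO1.

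At 30 against 1 µg/cm2, 2 of 6 AhR targets were called lower, CYP1A1 (-2.51 ± 0.465, adjusted p = 0.00411) and AHRR (-0.90 ± 0.191, adjusted p = 0.00875), and 1 was called higher, NQO1 (1.03 ± 0.167, adjusted p = 0.00179). CYP1B1 (-0.15), TIPARP (0.10) and ALDH3A1 (-1.95) were not called, and the median of the 6 was -0.53. Of 12 NRF2 targets, NQO1 included, 7 were called higher and 0 lower (median 1.29). In the repeated protocol 3 of 6 AhR targets (CYP1A1 3.85, CYP1B1 1.46 and AHRR 1.38) and 0 of 12 NRF2 targets were called higher, and 1 of 16 other aldehyde dehydrogenases, ALDH6A1, was called lower (-0.69 ± 0.119, adjusted p = 0.0384). In Control_7d against Control_24h 0 of 12 NRF2 targets were called higher and 5 lower, where 11.1% and 10.8% of all genes were. NQO1 (-1.68) and HMOX1 (-1.58) were among these 5.

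At 1 µg/cm2 over 24 h none of the other aldo-keto reductases (6 tested, median 0.21), aldehyde dehydrogenases (16, median 0.11), carbonyl and enone reductases (10, median 0.06), alcohol dehydrogenases (4, median -0.21) and epoxide hydrolases (3, median 0.05) was called without the block. With it DHRS3 and NQO1 were called higher, DHRS3 at 2.003 with an adjusted p of 0.00209. DHRS3 had 5.04 ± 4.77 CPM in Control_24h, 16.6 ± 5.87 CPM after 1 µg/cm2 and 16.7 ± 9.77 CPM after 30 µg/cm2.

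For the 3 members with the widest range of condition means, the tested genes with the most similar levels over the 15 libraries were found. The measure was the root mean square difference of log2 CPM after centring each gene on its own mean, over 13861 genes with a mean of at least 1 CPM. For AKR1C3 (range 2.85) the closest included UCHL1 (0.541) and NKX2-5 (0.55). UCHL1, a ubiquitin hydrolase, had 126 ± 10.6 CPM in Control_24h, 309 ± 50.0 CPM after 30 µg/cm2 and 31.0 ± 1.70 CPM in Control_7d. For AKR1C2 (range 2.48) the closest were PIR (0.3), TRIM16L (0.487) and C6orf52 (0.525). PIR, an iron-binding nuclear protein, had 36.7 ± 13.7 CPM in Control_24h, 59.6 ± 13.5 CPM after 1 µg/cm2 and 88.1 ± 37.3 CPM after 30 µg/cm2.

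For ALDH3A1 (range 2.78) the closest genes were NFE2 (0.668), ENTPD8 (0.713) and WFDC21P (0.742). ENTPD8 had 0.142 to 1.88 CPM in Control_24h, 1.83 to 3.87 CPM after 1 µg/cm2 and 0.0479 to 0.624 CPM after 30 µg/cm2. Among the members themselves, AKR1B1 and CBR1 were the closest pair, at 0.203, and AKR1B10 and AKR1C3 the most distant, at 2.20. These distances share libraries, and with them the shift of 24-h experiment 2, and are given as a description.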

How the data were processed

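RNA of BEAS-2B cells was sequenced as single-end reads of 50 bases. The authors aligned the reads to GRCh38 with STAR and counted them per gene with featureCounts, and the deposited table holds these counts without normalization. The submitters' processing notes name hg19, but 97.2% of the named genes start within 5000 bases of their GRCh38 position, so coordinates were taken as GRCh38. Strand and multi-mapping options are not given in the sources used here. Per the methods cells had 6 daily exposures and were collected on day 7, whereas the labels give 7 days.

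Groups and replicate numbers came from the sample labels. Of the table, 45 second copies of pseudoautosomal genes with 0 reads were left out. The analysis used edgeR 4.0.16 (R 4.3.3), with genes filtered by filterByExpr, TMM scaling, quasi-likelihood fit in legacy mode, 1 mean per condition, all 15 libraries. CPM values are TMM-scaled. The SE is |log2 fold-change|/√F, with F from the test. The depth of 21460981 to 34724765 counts limits genes of few counts, and a floor of 3 counts was used, for counting error alone. Fits were tested on simulated data.

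The series record gives the last number of a sample name as the experimental batch, so same-numbered libraries of a protocol are paired. Deviations from the condition means correlated at 0.211 to 0.732 between same-numbered libraries of the 24-h protocol and at 0.129 to 0.192 in the repeated protocol, and between different numbers at -0.696 to 0.47 and -0.136 to -0.0364. Numbers of the protocols were blocked apart.

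Alternatives were RLE and upper-quartile scaling, no filter or a filter at 1 CPM, only the libraries compared, the replicate block, edgeR's current mode, DESeq2 1.42.0, the likelihood ratio test, each library left out, 24-h experiment 2 left out, and AKR1C genes summed. Shared windows were counted on both strands of GENCODE transcripts. Besides all members, genes named are list genes called in a treatment comparison, genes that share sequence with a member, and for 3 members the 3 nearest genes. A gene that this rule covers is not reported here. ALDH3B1, ALDH3B2, ALDH4A1, DHRS3, AKR1B15 in the controls, the marker genes, and the NRF2 and AhR targets listed at other contrasts were named after their values were seen. Members and lists were chosen with earlier results of these data known.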

Additional observations from a re-analysis of the deposited data

How the results depend on the processing

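The replicate block (the experiment number as a pair within a protocol) gave 4 called members at 30 µg/cm2, 2 at 1 µg/cm2, 3 between the doses, and 0 in the repeated protocol and the interaction. It changed no other call of a member, and turned the direction of CBR3 at 30 µg/cm2 (-0.017), AKR1B10 at 1 µg/cm2 (0.038) and AKR1C3 between the doses (-0.009), none of which was called. Over all genes the block called 2681 at 30 µg/cm2, 74 at 1 µg/cm2, 773 in the repeated protocol, 2737 between the doses and 181 in the interaction, against 1420, 11, 40, 1379 and 0 without it. With 24-h experiment 2 left out the members called were 5 at 30 µg/cm2, 4 at 1 µg/cm2, 1 in the repeated protocol, 2 between the doses, 2 in the interaction and 7 between the controls. That fit turned the direction of ALDH3A1 at 30 µg/cm2 (-0.83, called) and between the controls (0.754, called). It also turned values that were not called: AKR1B10 (0.364), CBR1 (-0.196) and CBR3 (-0.257) at 30 µg/cm2, AKR1B1 (-0.006) and AKR1B10 (0.409) at 1 µg/cm2, AKR1C3 (-0.427), ALDH1A3 (-0.03) and CBR1 (-0.09) between the doses, AKR1B1 (0.081) in the interaction and AKR1C1 (0.315) between the controls. With only the libraries compared in the fit, 0 members were called at 30 µg/cm2, 0 between the doses and 1 in the repeated protocol. The share of all genes called in those fits was not counted. Without the filter 1 was called at 1 µg/cm2 and 3 between the doses. With the AKR1C genes summed 0 were called between the doses. For these fits too the share of all genes called was not counted, and without the filter the set of tested genes is another. Upper-quartile scaling turned CBR1 at 1 µg/cm2 (0.004). The cause of these changes was not tested. RLE scaling, the filter at 1 CPM, edgeR's current mode, DESeq2 and the likelihood ratio test left the 6 counts of called members as they were.

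Leaving out 1 library at a time gave 2 to 3 called members at 30 µg/cm2, 0 to 3 between the doses, 3 to 4 between the controls and 0 in the others. How the share of all genes called moved in these fits was not counted. Without PM_24h_30dose of experiment 2, ALDH3A1 (-4.43) and CBR3 (-0.804) were called lower between the doses. A group left with 2 libraries has the spread shared by all. Log2 fold-changes whose sign turned without 1 library, none of which was called in any of these fits, ranged as follows: at 30 µg/cm2 CBR3 -0.453 to 0.257, AKR1B10 -1.02 to 0.305, AKR1B1 -0.085 to 0.378, ALDH3A1 -2.01 to 1.64, CBR1 -0.18 to 0.227. Ranges at 1 µg/cm2 AKR1B1 -0.149 to 0.261, AKR1B10 -0.56 to 0.916, CBR1 -0.107 to 0.072, EPHX1 -0.206 to 0.723. Ranges between the doses AKR1B1 -0.193 to 0.379, ALDH1A3 -0.119 to 0.349, AKR1C3 -0.498 to 0.397, CBR1 -0.165 to 0.241, EPHX1 -0.061 to 0.755. Ranges in the repeated protocol AKR1C2 -0.014 to 0.244, AKR1B10 -1.05 to 0.109, EPHX1 -0.123 to 0.038. Ranges in the interaction AKR1B1 -0.182 to 0.229, AKR1B10 -1.2 to 0.272, AKR1C1 -0.606 to 0.202, AKR1C3 -0.737 to 0.124, EPHX1 -0.769 to 0.16. Ranges between the controls EPHX1 -0.038 to 0.63, AKR1C1 -0.476 to 0.307, ALDH3A1 -0.844 to 0.753. Counting error is larger for genes with few counts, AKR1C3 and ALDH3A1 among them, and its part in these ranges was not tested.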
